A study of Mus musculus with 19 samples.

Results

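The regions described here are 675 of 90154 open chromatin regions (peaks) of cultured mouse cells that differentiated from neural stem and progenitor cells into astrocytes with or without tumor necrosis factor (TNF). They were chosen by their measured values, as mean normalised read counts per group. A member had a mean at 24 h with TNF of at least 1.7 times the mean at 24 h without it and a mean at 72 h with TNF of at most 1.2 times the mean at 72 h without it. It also needed a mean of at least 50 at 24 h with TNF and of at least 10 at 72 h without TNF, and 65233 peaks met these level limits. The working name of the set, peaks opened by TNF at 24 h only, went further than the data did for single peaks, and the regions are therefore called members of this 24 h rule. The assay was ATAC-seq: transposase loaded with adapters reaches DNA where chromatin is open, and the read count of a region reflects how accessible it was. The cells came from the ventricular zone of single brains of wild type C57BL/6J mice at embryonic day 14. They were sampled as floating neurospheres in medium with EGF (NSP, 3 libraries), and after exchange for serum-containing medium without EGF at 24 h (3 libraries), at 72 h (3) and at 1 week (4), all untreated, and with TNF at 50 ng/ml at 24 h (3) and at 72 h (3). NSP libraries are titled astrocytes at 0 h but carry the cell type NSP in the labels, and were taken as NSP. No label says which embryo or culture gave which library, so the spread between libraries may be technical in part. A library is a mixture of cells, in which fewer cells of a type and less open chromatin per cell cannot be told apart.

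TNF is an inflammatory cytokine. Its receptors on the cell surface signal to the transcription factors NF-κB, which binds the κB element, and AP-1, a dimer of Jun, Fos and ATF proteins that binds the AP-1 element. In astrocytes, TNF is known to induce cytokines, chemokines and adhesion molecules and to contribute to the reactive state. Most regions that gain accessibility after such signals lie away from promoters and are regarded as enhancers, whose target gene need not be the nearest gene. A gene name beside a peak below therefore says where the peak lies and not which gene it acts on.

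Promoter sequences were available for 17492 protein-coding genes, as the 250 bases before and the 50 bases after the start of the gene (RefSeq, build GRCm38.p6). Members reached the promoters of 7 genes, Aebp1, Akr1c18, Arhgef10l, Ifit3b, Klrb1a, Lenep and Orm2, with 8 windows because Arhgef10l had 2 that overlap. Each window lay with all its 300 bases inside the member. A search of both strands for the AP-1 element TGANTCA found a match at 4 of the 7 genes. These 4 windows are shown because they carry it. Matches to AP-1, to the C/EBP element TTGCNNAA and to the interferon-stimulated response element (ISRE) are in capitals, and every window reads 5′ to 3′ on the strand of its gene. The Orm2 window, at chr4:63362199-63362498 on the plus strand, belongs to an acute phase plasma protein and has an AP-1 and a C/EBP match. Ifit3b, at chr19:34607707-34608006 on the plus strand, is an interferon-induced gene and has 2 ISRE matches and an AP-1 match. The Lenep window, at chr3:89402601-89402900 on the minus strand, belongs to a lens epithelial protein gene within Flad1 and has an AP-1 match. Arhgef10l, which codes for a guanine nucleotide exchange factor, has 2 AP-1 matches in the window at chr4:140665856-140666155 on the minus strand.
Orm2: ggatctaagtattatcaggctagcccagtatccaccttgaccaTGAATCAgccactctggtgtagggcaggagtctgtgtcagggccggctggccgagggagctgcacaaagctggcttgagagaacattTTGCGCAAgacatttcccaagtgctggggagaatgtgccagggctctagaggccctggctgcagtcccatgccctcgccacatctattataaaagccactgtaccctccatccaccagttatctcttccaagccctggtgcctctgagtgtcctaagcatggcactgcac
Ifit3b: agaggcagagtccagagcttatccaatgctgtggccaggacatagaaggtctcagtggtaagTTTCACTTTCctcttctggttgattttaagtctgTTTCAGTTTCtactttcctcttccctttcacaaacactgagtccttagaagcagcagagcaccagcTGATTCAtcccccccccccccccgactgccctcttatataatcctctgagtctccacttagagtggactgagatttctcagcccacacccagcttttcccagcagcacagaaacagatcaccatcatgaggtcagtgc
Lenep: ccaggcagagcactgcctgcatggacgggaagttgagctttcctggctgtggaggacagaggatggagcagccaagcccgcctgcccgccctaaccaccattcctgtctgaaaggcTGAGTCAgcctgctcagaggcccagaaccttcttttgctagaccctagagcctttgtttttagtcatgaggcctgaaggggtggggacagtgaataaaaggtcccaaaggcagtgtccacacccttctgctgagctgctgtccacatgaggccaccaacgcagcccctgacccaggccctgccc
Arhgef10l: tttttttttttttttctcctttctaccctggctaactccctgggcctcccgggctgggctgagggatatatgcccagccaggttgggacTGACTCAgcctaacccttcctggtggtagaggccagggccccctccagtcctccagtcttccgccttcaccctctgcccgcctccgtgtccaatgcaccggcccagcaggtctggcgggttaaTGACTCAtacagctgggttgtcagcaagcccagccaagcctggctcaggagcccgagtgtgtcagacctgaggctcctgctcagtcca

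Counted over windows, AP-1 matched in 5 of the 8 (62.5%), against 4.38% of the 11074 windows at tested peaks and 6.99% of all 21263 windows. In the 2652 peaks that were at least 1.7 times higher with TNF at both times, called peaks opened at both times here, 8 of 32 windows (25.0%) held an AP-1 match. The κB element, searched by the pattern of that name, matched in 0 of 8 windows of members, in 28.1% of the 32 windows of peaks opened at both times and in 10.6% of windows at tested peaks. The NRF2 element TGACNNNGC matched in as many windows as AP-1, 5 of 8 (62.5%), and also at 4 of the 7 genes. Of its 5 matches, 3 shared bases with an AP-1 match, so these 2 searches were not independent. NRF2 matched in 14.8% of windows at tested peaks and in 6.25% of the 32 windows of peaks opened at both times. Of the other elements searched on both strands, the E-box CAGCTG matched in 3 of 8 windows (14.9% at tested peaks), C/EBP in 1 (7.396%), ISRE in 1 (2.52%), the TEAD element GGAATG in 1 (11.3%), the NFI element TTGGCA in 1 (10.9%) and the RUNX element TGTGGT in 1 (11.1%), and the CRE TGACGTCA (3.504%), the STAT element TTCCNGGAA (1.15%) and the SOX element (3.01%) in 0. With 7 genes these shares are a description of few letters. A match is not a binding site, and the sequences of the other members were not used here.

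At the Orm2 promoter the 3 libraries at 24 h stood at 52.4, 76.7 and 40.6 normalised reads and the 3 with TNF at 134, 148 and 166. At 72 h they stood at 90.1, 105 and 136 without TNF and at 138, 137 and 108 with it. The groups were apart at 24 h and overlapped at 72 h. At Ifit3b, the libraries read 60.3, 51.6 and 56.7 at 24 h, 95.5, 95.9 and 125 at 24 h with TNF, 115, 118 and 122 at 72 h, and 113, 103 and 158 at 72 h with TNF. The untreated libraries at 72 h thus stood among those treated with TNF. At Lenep, values of 18.2, 16.2 and 24.6 at 24 h faced 55.7, 38.8 and 61.3 with TNF, and 37.3, 32.3 and 63.7 at 72 h faced 33.1, 44.3 and 24.0. Arhgef10l had 35.3, 36.9 and 33.3 at 24 h, 74.3, 78.6 and 72.7 with TNF, 61.8, 32.3 and 37.0 at 72 h, and 59.9, 31.0 and 61.2 with TNF. Orm, Ifit, Klrb1 and Akr1c genes have close copies that can share reads, and the part of shared reads in these values was not tested.

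The table held 19 libraries with 9640256 to 39349111 reads in peaks, the deepest being NSP. Reads could be recovered from the values, and the median member had 34 reads in an untreated and 84 in a treated library at 24 h, 51 and 56 reads at 72 h, 78 in NSP and 42 at 1 week. NSP replicate 1 stood apart from the other NSP libraries, with Spearman correlations over peaks down to 0.913 within the group, against 0.940 to 0.978 within the other groups. Library names of the 72 h and 1 week groups carry a tag that those of NSP and 24 h lack. The TNF comparisons lie within 1 kind of name, whereas tag and time cannot be told apart in 1 week against NSP, in 24 h against 72 h or in the difference of the TNF effects between the times. Among gene-end peaks of marker genes, those of 5 of 6 astrocyte genes were found (not Aqp4) and those of 3 of 6 microglia genes (not Aif1, Cx3cr1 or Csf1r). The summed level of the microglia list was 353 to 373 at 24 h, 333 to 361 at 24 h with TNF, 345 to 412 at 72 h and 355 to 427 at 72 h with TNF, and that of the astrocyte list was 1473 to 1640, 1459 to 1682, 1819 to 1996 and 1651 to 1732. The oligodendrocyte lineage list, with 2 peaks, stood at 729 to 775 at 24 h and 631 to 743 with TNF. At 72 h it stood apart, at 443 to 477 without TNF and 534 to 655 with it. Treated and untreated levels of the progenitor, neuron and fibroblast lists overlapped at both times. No endothelial marker out of 3 had such a peak, and 0 members lay at the ends of any marker gene of the 7 lists, so no marker peak is among the regions described. The part of other cell types in the members' values was not tested.

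Since the rule took group means of 3 libraries, the values that chose the members also favour them. The ratio at 24 h ranged from the limit of 1.7 to 4.44 over the members, with a median of 1.90, and the ratio at 72 h from 0.450 to the limit of 1.2, with a median of 1.07. At 72 h, 219 members were below 1. The largest 24 h ratio belonged to a peak inside Tex2, with values of 10.2, 20.7 and 12.3 at 24 h and of 62.8, 61.4 and 67.5 with TNF. At the edge of the 24 h limit, a peak near Acot12 was inside with a ratio of 1.7004 (45.6 to 77.6) and a peak near Impa2 was outside with 1.6991 (63.1 to 107). At the 72 h limit a peak near Cdh12 was inside with a ratio of 1.1995 (10.0 to 12.0), and a peak near Tle4 outside with 1.2006 (82.4 to 98.9). For the level at 24 h with TNF, peaks near Kcnd3 (50.0) and Wdr72 (49.9) lay on either side, and for the level at 72 h the peaks near Cdh12 (10.0) and Lrp1b (6.76). At each limit but the last, members and non-members were thus hardly apart. The level at 24 h with TNF was below 100 in 432 members.

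**Figure D1:**
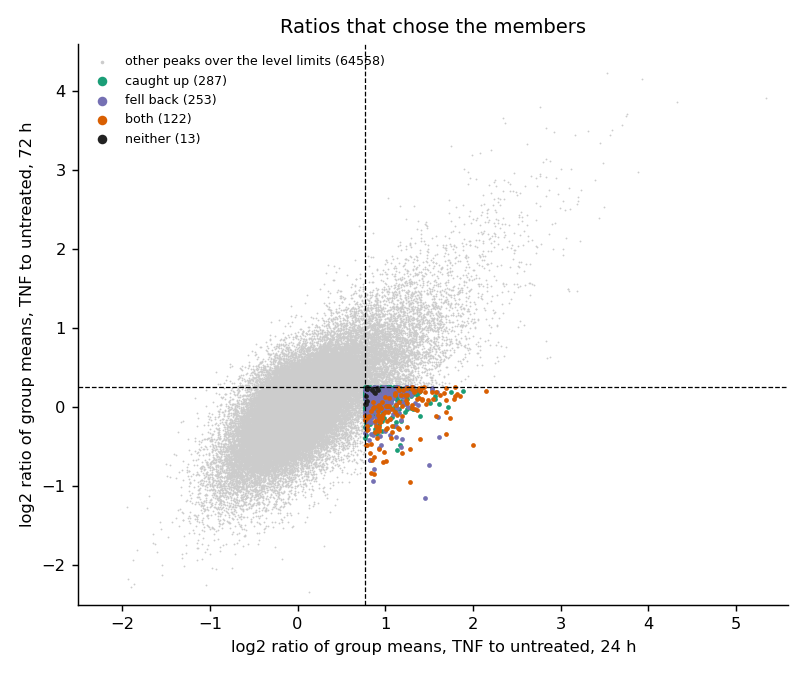
Each point is a peak that met the level limits, with the log2 ratio of group means, TNF to untreated, at 24 h on the x axis and at 72 h on the y axis. Dashed lines mark the limits of 1.7 and 1.2. The 675 members, coloured by class, fill the lower right field that the limits cut from one continuous cloud of 65233 peaks.

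To see how far the rule's pattern held in libraries it did not use, the same rule was applied after leaving out the replicate of 1 number from each of the 4 groups, and the ratios of the chosen peaks were read in the libraries left out. The rule then chose 1147, 955 and 879 peaks without replicate 1, 2 and 3, of which 489, 413 and 378 were also members. The median ratio at 24 h went from 1.94, 1.94 and 1.92 in the libraries that chose the peaks to 1.58, 1.49 and 1.57 in those left out, while all peaks over the level limits stood at 0.995, 0.994 and 1.02. Of the chosen peaks, 89.8%, 85.0% and 86.2% were above 1 at 24 h in the libraries left out, against 49.4%, 49.2% and 53.1% of all these peaks. A higher level with TNF at 24 h was thus seen again, at a smaller size.

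The 72 h side held less well. The median ratio at 72 h went from 1.04, 1.05 and 1.04 to 1.25, 1.15 and 1.17 in the libraries left out, against 1.05, 1.04 and 1.05 for all peaks over the level limits. Of the chosen peaks, 44.3%, 54.7% and 53.2% stayed at or under 1.2 at 72 h, against 68.3%, 69.1% and 69.6% of all these peaks. Both ratio conditions were met again by 15.1%, 15.2% and 19.6% of the chosen peaks (1.99%, 2.85% and 2.62% of all). In libraries not used for the choice, the chosen peaks were therefore slightly higher with TNF at 72 h as well. Each such ratio compares 1 library with 1 library, so single peaks cross the limits by counting error too.

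**Figure D2:**
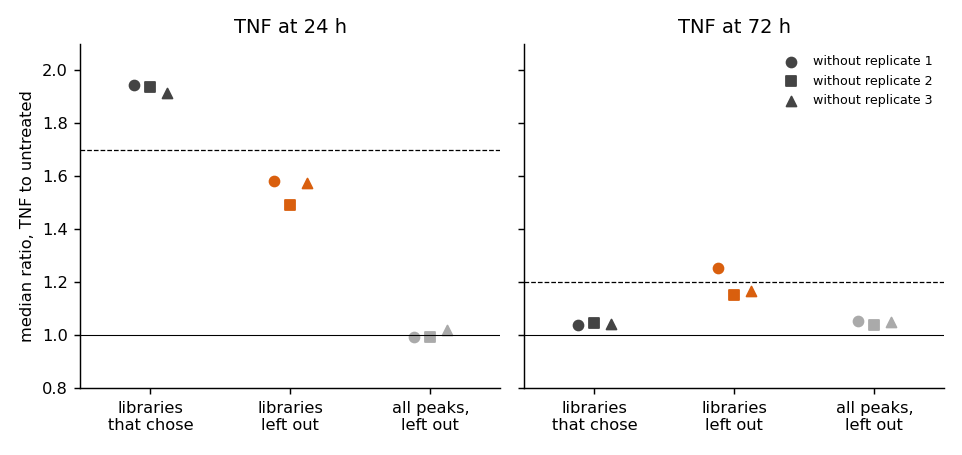
Median ratio, TNF to untreated, at 24 h (left) and 72 h (right) for the peaks chosen by the rule in 2 of the 3 replicates per group, in the libraries that chose them and in the libraries left out, and for all peaks over the level limits in the libraries left out. Symbols are the replicate left out, and dashed lines are the rule's limits of 1.7 and 1.2. At 24 h the medians fell from 1.92 to 1.94 down to 1.49 to 1.58, and at 72 h they rose from 1.04 to 1.05 up to 1.15 to 1.25.

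Over the members, the median level of a library was 42.1 to 45.6 normalised reads at 24 h and 79.6 to 94.5 at 24 h with TNF, the highest being replicate 3 with TNF. It was 63.1 to 65.8 at 72 h and 63.6 to 67.9 at 72 h with TNF. NSP libraries stood at 38.6 to 49.5 and 1 week libraries at 43.6 to 48.4. Untreated cells at 72 h thus stood between untreated and treated cells at 24 h. The median over all tested peaks lay between 80.0 and 89.3 in every library, so members were low peaks outside the TNF group. Peaks opened at both times stood at 48.9 to 52.6 at 72 h without TNF and at 118 to 125 with it. This contrast with the members was set by the choice, and nothing is read from it. At 72 h, these peaks needed a ratio of at least 1.7 and members one of at most 1.2.

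The means that chose the members can be grouped by how they moved from 24 h to 72 h, a description of the choice itself, since a low untreated and a high TNF mean at 24 h with close means at 72 h leave few other courses. In 287 members (42.5%) the untreated mean at 72 h was at least 1.3 times that at 24 h while the TNF mean had not dropped by that factor, called caught up here. In 253 members (37.5%) the TNF mean had dropped by at least 1.3 times from 24 h to 72 h and the untreated mean had not risen by that factor, called fell back. Both held in 122 members (18.1%) and neither in 13 (1.93%). In the caught-up class, library medians were 44.4 to 45.7 at 24 h, 81.4 to 94.5 at 24 h with TNF, 84.9 to 90.1 at 72 h and 88.8 to 96.6 at 72 h with TNF. The fell-back class had 41.0 to 45.6, 77.6 to 93.5, 43.3 to 44.3 and 44.4 to 47.4 in the same order. The class sizes moved with the factor, and the rule's own libraries define them.

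**Figure D3:**
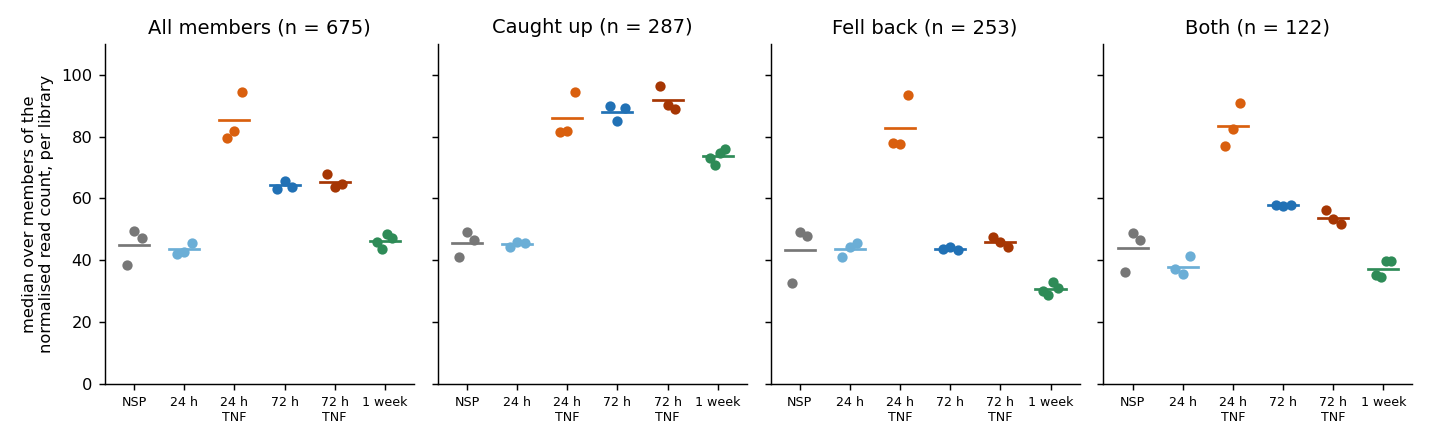
Median normalised read count over the members in each library (points) and the mean of the library medians per group (lines), for all members and for the 3 larger classes. Caught-up members stood at 84.9 to 96.6 in all 6 libraries at 72 h, fell-back members at 43.3 to 47.4.

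For comparison with the table as a whole, limma-trend, a linear model per peak that shares its estimate of the spread across peaks, was fitted to log2(normalised reads + 1) of all 88919 peaks that passed a filter on low reads, and all 675 members passed it. The TNF contrasts used the same libraries as the rule, and the counts below describe what the rule selected. At 24 h, 436 members (64.6%) were called higher with TNF at an adjusted p under 0.05, where 7.06% of tested peaks were. Without replicate 3 of 24 h with TNF the count was 220, and without replicate 1 of 24 h it was 284. The calls over all tested peaks fell as well, from 6274 to 3860 and 4491. In 619 members (91.7%) all TNF libraries at 24 h lay above all untreated ones, where 15.2% of tested peaks did. At 72 h the libraries overlapped in 625 members (92.6%, with 67.0% of tested peaks). There, 0 members were called higher (6.24% of tested peaks), also by edgeR and DESeq2, and 0 had an unadjusted p under 0.05 in that direction. The 3 called lower (5.55% of tested peaks) were near Bmp7 and Ankrd50 and inside Matn2. Of calls of this kind there was 1 without replicate 1 of 72 h and 0 without replicate 2 of 72 h with TNF. Over all tested peaks these calls went from 4932 to 2829 and 3452. The difference of the TNF effects between the times was called lower at 72 h in 1 member, the peak near Bmp7 (0.00112% of tested peaks, that peak alone). An unadjusted p under 0.05 was reached by 413 members (61.2%, with 3.92% of tested peaks). DESeq2 on the recovered reads called 23 members (67 of the 66491 peaks to which it gave an adjusted p) and edgeR 1 (1 of 88919), and a fit to the 4 groups compared called 51 (162 of 88919). A member-by-member statement that TNF acted differently at the 2 times could thus not be made for most of the set.

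The 10 members with the smallest p for that difference are given by library. The member near Bmp7 (chr2:172756448-172756948, 111314 bases from the nearest end of this gene of a secreted bone morphogenetic protein) had 123, 119 and 121 normalised reads at 24 h and 225, 259 and 233 with TNF. At 72 h it had 197, 201 and 218 without TNF and 148, 124.2 and 143 with it. The groups were apart at both times and in opposite directions. A member inside Matn2, the gene of an extracellular matrix protein (chr15:34370134-34370634), had 44.4, 57.5 and 49.3 at 24 h, 103, 85.1 and 109 with TNF, 108, 69.4 and 102 at 72 h, and 54.5, 51.7 and 66.0 with TNF. It too turned over, with a narrow gap at 72 h. A second Matn2 member stood at means of 28.1 and 69.2 at 24 h and 52.0 and 52.9 at 72 h.

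Among transcription factor genes, a member inside Erg, an ETS factor (chr16:95573059-95573559), had 88.8, 60.5 and 91.1 at 24 h and 205, 208 and 308 with TNF. It stayed between 160 and 201 in all 6 libraries at 72 h. A member 4254 bases from Dlx4, a homeobox gene (chr11:95150298-95150798), had 43.3, 41.3 and 53.0 at 24 h, 86.7, 77.6 and 113 with TNF, 97.8, 78.9 and 90.5 at 72 h, and 66.2, 54.7 and 45.6 with TNF. Both thus had untreated cells at 72 h above untreated cells at 24 h, and only the Dlx4 member of this pair had all TNF libraries below all untreated ones at 72 h.

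Receptor genes held 3 of the 10. Inside Gabbr1, which codes for a subunit of the GABA-B receptor (chr17:37069870-37070370), values were 95.6, 131 and 80.1 at 24 h and 248, 238 and 239 with TNF, then 115, 128 and 133 at 72 h and 144, 121 and 121 with TNF. NSP libraries stood at 258, 338 and 294 and 1 week libraries at 83.8, 86.5, 85.8 and 81.5. The TNF libraries at 24 h were thus nearest to NSP. A member inside Lrp1, an endocytic receptor of the LDL receptor family (chr10:127597284-127597784), had 195, 229 and 209 at 24 h, 410, 387 and 501 with TNF, 226, 200 and 245 at 72 h, 239, 211 and 209 with TNF, and 390, 311 and 294 in NSP. In both members the untreated libraries at 24 h stood below those of NSP and those with TNF. Inside Igf2r, the mannose-6-phosphate receptor gene (chr17:12737842-12738342), the levels were 125, 87.0 and 115 at 24 h, 239, 255 and 315 with TNF, 253, 252 and 305 at 72 h, and 362, 278 and 280 with TNF. Here the untreated cells at 72 h had the level of treated cells at 24 h, and NSP libraries were at 95.8 to 108.

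The others lay inside Septin9, a cytoskeletal GTP-binding protein gene (chr11:117255992-117256492), inside Kbtbd12, a kelch repeat protein gene (chr6:88606343-88606843), and near Ankrd50, an ankyrin repeat protein gene (chr3:38593432-38593932). Septin9 went from 211, 243 and 195 to 470, 490 and 501 with TNF at 24 h, and stood at 395, 384 and 349 at 72 h and 477, 393 and 464 with TNF. Kbtbd12 had 46.7, 33.9 and 41.9 at 24 h, 105, 77.6 and 96.6 with TNF, 65.6, 67.0 and 71.4 at 72 h, and 44.7, 56.2 and 36.0 with TNF. Ankrd50 had 51.2, 59.0 and 53.0, then 92.0, 116 and 84.1 with TNF, then 134, 102 and 102 at 72 h and 71.5, 47.3 and 70.8 with TNF. In the Kbtbd12 and Ankrd50 members the treated libraries at 72 h all lay below the untreated ones, after the opposite order at 24 h.

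**Figure D4:**
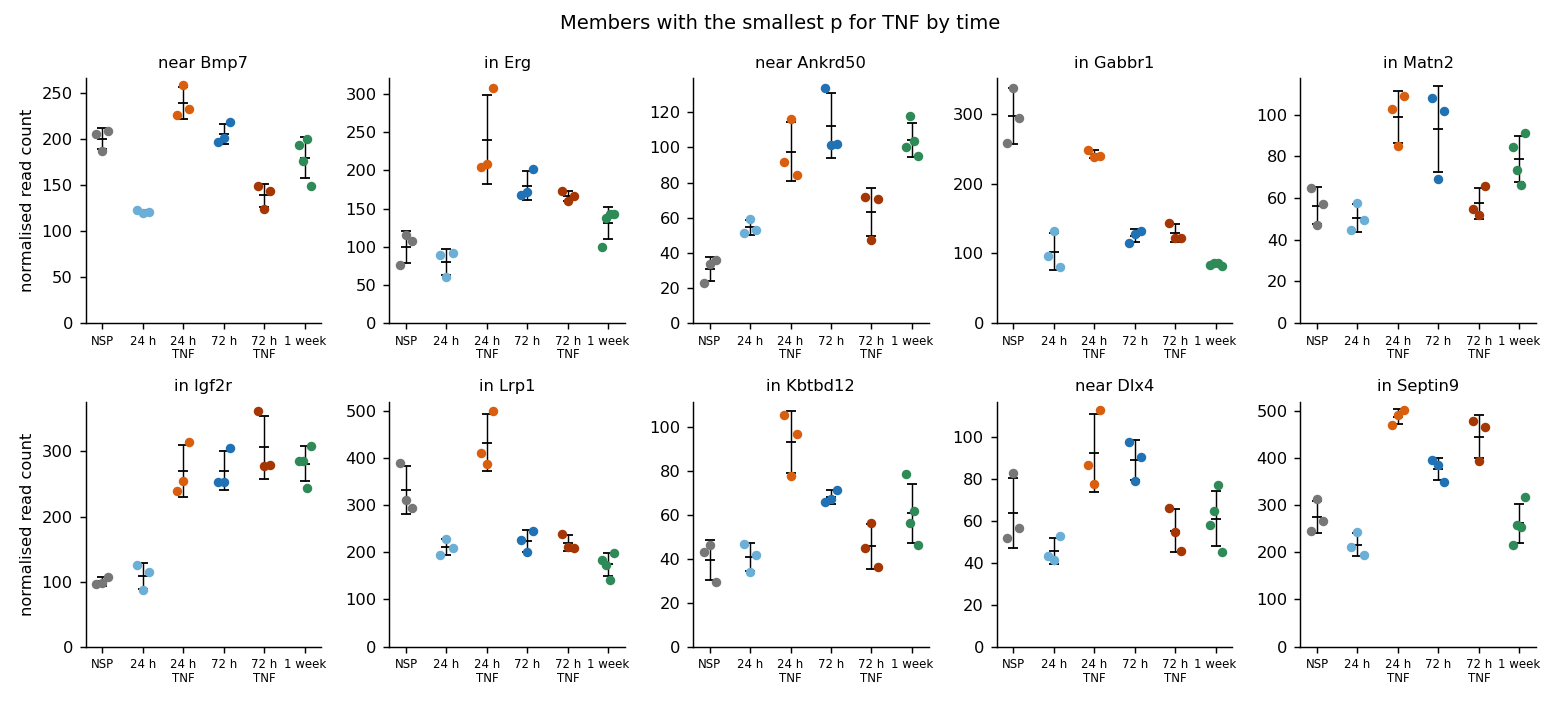
Normalised read count of the 10 members with the smallest p for the difference of the TNF effects between 24 h and 72 h, in every library (points), with the group mean and SD (black bars, 3 libraries per group and 4 at 1 week). In all 10 the TNF libraries at 24 h lie above the untreated ones, whereas at 72 h the treated libraries lie below the untreated ones near Bmp7, Ankrd50 and Dlx4 and inside Matn2 and Kbtbd12 and overlap or lie close to them in the others.

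A comparison that the rule did not use was 1 week against NSP, the full course of untreated differentiation. Of the members, 225 (33.3%) were called higher at 1 week and 208 (30.8%) lower, where 33.7% and 33.6% of tested peaks were. Over all members the median log2 difference was -0.03. Members as a whole were thus divided between the directions about as the other peaks were. The peaks opened at both times were called higher at 1 week in 49.8% and lower in 16.7%. Without NSP replicate 1, the library that stood apart, 209 members were called higher and 240 lower. Of the 88919 tested peaks, 30809 were then higher and 29909 lower. Without that library more members were thus lower than higher, which was not so over all tested peaks. This difference was not tested.

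Within the set, the classes are given apart. Of the caught-up members, 148 of 287 (51.6%) were called higher at 1 week and 48 (16.7%) lower, with a median log2 difference of 0.51. Of the fell-back members, 46 of 253 (18.2%) were higher and 108 (42.7%) lower, with a median of -0.46. Peaks over the level limits that changed in these ways from 24 h to 72 h but were no members had the same order and a wider gap. Among 12269 such caught-up peaks 65.3% were higher and 7.55% lower, and among 15370 fell-back peaks 15.2% were higher and 61.0% lower. In these 2 classes the order is therefore shared with peaks outside the set, and no difference between members and these peaks was tested. Of the members where both held, 28 (23.0%) were higher and 43 (35.2%) lower. The 233 other such peaks were nearly even, with 29.2% higher and 28.3% lower, and no difference was tested here either.

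**Figure D5:**
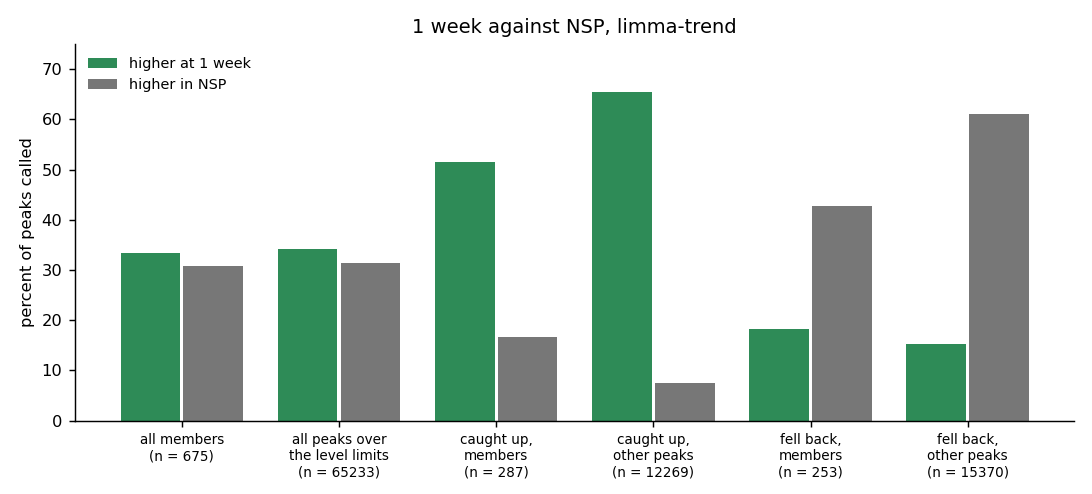
Percent of peaks called higher at 1 week (green) and higher in NSP (grey) by limma-trend at an adjusted p under 0.05, for all members, all peaks over the level limits and, within the caught-up and fell-back classes, members and other peaks. Of the caught-up members 51.6% were higher at 1 week and of the fell-back members 42.7% were higher in NSP, and the other peaks of each class showed the same order.

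The 5 members with the smallest p among those higher at 1 week were all of the caught-up class. A member inside Trim67, which codes for a tripartite motif protein (chr8:124826660-124827160), had 14.6, 24.5 and 33.9 in NSP and 629, 567, 623 and 524 at 1 week, a log2 difference of 4.61 (SE 0.19). Between these it had 96.8, 106 and 73.9 at 24 h, 163, 199 and 187 at 24 h with TNF, 394, 303 and 414 at 72 h and 348, 313 and 354 at 72 h with TNF. The values climbed at each untreated time point. Inside Adamts9, a secreted metalloprotease gene (chr6:92827369-92827869), NSP libraries had 8.18, 1.41 and 4.65 and 1 week libraries 365, 346, 407 and 309, a log2 difference of 6.15 (SE 0.26). Its libraries at 24 h were at 59.0 to 71.4, those with TNF at 110 to 141 and the untreated ones at 72 h at 171 to 217. Map6, the gene of a microtubule-stabilising protein (chr7:99277342-99277842), held a member that went from 33.9 to 38.6 in NSP to 384 to 475 at 1 week. The members near Togaram2 (chr17:71730596-71731096) and inside Smg6 (chr11:74990776-74991276) went from 4.09 to 8.48 and 9.97 to 22.8 in NSP to 127 to 156 and 275 to 378. In these 5 members the adjusted p of limma-trend was between 8.96e-19 and 1.27e-15, and no library of NSP overlapped one of 1 week.

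Of the members lower at 1 week, the one with the smallest p lay 197960 bases from Klf4, a zinc finger transcription factor gene (chr4:55730185-55730685). It had 299, 615 and 621 in NSP and 44.1, 48.3, 33.0 and 64.3 at 1 week, a log2 difference of -3.37 (SE 0.22). At 24 h it had 92.2, 131 and 70.2, and 242, 213 and 240 with TNF. The TNF libraries stood between the untreated ones and NSP. A member inside Creb5, a leucine zipper factor gene (chr6:53371929-53372429), had 228, 421 and 370 in NSP and 30.4 to 55.0 at 1 week, and 83.1 to 99.8 at 24 h against 140 to 187 with TNF. The member inside Scarb2, a lysosomal membrane protein gene (chr5:92498622-92499122), went from 144 to 217 in NSP to 24.7 to 31.7 at 1 week. The Gabbr1 member above was also among them, with a log2 difference of -1.79 (SE 0.16). The adjusted p of limma-trend for these 4 was between 9.28e-14 and 3.93e-11.

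Comparisons that share libraries with the rule are given as counts only. Members at 24 h were higher than NSP in 132 (19.6%, with 24.2% of tested peaks) and lower in 143 (21.2%, with 23.0%). At 72 h against 24 h, both untreated, 235 were higher (34.8%, with 12.0%). The rule itself used the mean at 24 h, and nothing is read from this share. At 1 week against 72 h, 28 were higher (4.15%, with 22.5%) and 227 lower (33.6%, with 16.2%). In 93 members the NSP mean was at or above that of 24 h with TNF, and in 322 it was below that of 24 h. Of the 65233 peaks over the level limits these were 35047 and 28827. The rule itself used the levels at 24 h, and nothing is read from these counts.

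Gene lists for TNF and astrocyte biology were drawn up with earlier results of these data known, and a peak was given to a list when it lay inside or within 50 kb of a gene and that gene was nearest or held it. NF-κB and TNF signalling genes, such as inhibitors and subunits of NF-κB, had 0 of the 675 members, while 0.147% of tested peaks (131) and 0.679% of peaks opened at both times lay at them. Of those 131 peaks, 30 were called higher with TNF at 24 h and 38 at 72 h. The interferon and neural progenitor lists also had 0 members, with 0.0697% and 0.137% of tested peaks. Reactive astrocyte genes had 2 (0.296%, with 0.117% of tested peaks), and AP-1 and early response genes, cytokines and chemokines, adhesion, matrix and TGF-β genes, astrocyte differentiation genes and NRF2 targets had 1 each (0.148%), with 0.126%, 0.0877%, 0.207%, 0.258% and 0.0697% of tested peaks. A share of this size rests on 1 or 2 peaks. For 675 members the shares of tested peaks come to about as few, so nothing is read from the counts, also where they are 0. The lists were not complete, and Ifit3b, with a member at its promoter, was not on the interferon list. In all, 7 members were at a gene of any list.

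These 7 members were as follows. Inside Sbno2, a transcriptional coregulator gene of the reactive astrocyte list (chr10:80086817-80087317), values were 101, 67.9 and 94.8 at 24 h, 159, 145 and 217 with TNF, 192, 154 and 181 at 72 h, and 226, 198 and 167 with TNF. Also of that list, Fkbp5, the gene of a co-chaperone of the glucocorticoid receptor (chr17:28447761-28448261), had 25.0, 36.9 and 20.9, then 65.4, 58.2 and 56.1 with TNF, and 59.2, 31.1 and 42.1 at 72 h with 33.1, 48.8 and 45.6 under TNF. Sbno2 caught up in untreated cells, whereas the Fkbp5 member moved both ways. A member 33198 bases from Atf3, a stress-induced factor of the AP-1 family (chr1:191216281-191216781), had 52.4, 53.1 and 28.3 at 24 h and 112, 86.2 and 84.1 with TNF, and 87.5, 88.5 and 35.7 at 72 h with 64.4, 38.4 and 67.2 under TNF. Its libraries at 72 h spread widely within both groups. It was called for TNF at 24 h (adjusted p = 0.0407 by limma-trend), but not when any single library at 24 h was left out. Inside Il33, an alarmin cytokine gene (chr19:29930240-29930740), the levels were 17.1, 28.0 and 20.9, then 41.6, 63.6 and 64.4 with TNF, then 57.9, 34.7 and 54.8 at 72 h and 60.8, 75.4 and 34.8 with TNF.

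Near Itgb3, an integrin subunit gene (chr11:104599529-104600029), the member had 42.1, 51.6 and 37.0 at 24 h and 104, 57.1 and 69.6 with TNF, with 28.3, 56.2 and 30.6 at 72 h and 34.0, 39.9 and 39.6 under TNF. This member was not called for TNF at 24 h (adjusted p = 0.168 by limma-trend). NSP libraries stood at 142, 119 and 104, and those of 1 week were the lowest, at 6.43 to 19.8. A member 36587 bases from Sox9, a transcription factor of gliogenesis (chr11:112824094-112824594), had 91.1, 117 and 101, then 206, 193 and 214 with TNF, then 202, 222 and 203 at 72 h and 232, 232 and 270 with TNF. It was also high in NSP, at 199, 233 and 230. Inside Nfe2l2, which codes for NRF2 itself (chr2:75685328-75685828), values of 25.0, 25.1 and 25.9 faced 53.1, 52.8 and 90.3 with TNF at 24 h, and 37.3, 55.0 and 43.3 faced 51.0, 47.3 and 48.0 at 72 h. NSP libraries at this member spread from 36.8 to 90.0.

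Members lay mostly away from gene ends. Of the 675, 21 (3.11%) had their centre within 1 kb of the end of a protein-coding gene, as had 2.94% of peaks opened at both times and 15.03% of the 88799 tested peaks on scaffolds with annotated genes. The table of genes has no strand, so either end of a gene counted. Inside a gene lay 373 members (55.3%), against 53.7% of tested peaks. Outside genes and over 50 kb from any gene end lay 123 (18.2%), against 17.0% of tested peaks. The median distance to a gene end was 28.7 kb, close to that of peaks opened at both times (29.1 kb) and longer than that of tested peaks (20.1 kb). No test was made of these shares.

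At gene ends, the member at Klrb1a, a lectin-like receptor gene (chr6:128622758-128623258), had 78.6, 121 and 111 at 24 h and 160, 176 and 207 with TNF, with 95.2, 112 and 102 at 72 h and 97.5, 78.3 and 137 under TNF. It was not called for TNF at 24 h (adjusted p = 0.0784 by limma-trend). NSP replicate 1 stood at 107 there and the other NSP libraries at 318 and 368. At Flnc, a filamin gene (chr6:29432097-29432597), values of 91.1, 82.6 and 113 faced 170, 167 and 170 at 24 h, and 143, 121 and 136 faced 155, 160 and 136 at 72 h. Its TNF libraries at 24 h differed by less than any other group's. Nin, a centrosomal protein gene (chr12:70011633-70012133), and Pxmp4, a peroxisomal membrane protein gene (chr2:154584897-154585397), went from 53.1 to 107 and 55.8 to 76.7 at 24 h to 123 to 173 and 118 to 123.9 with TNF. At 72 h their treated libraries, at 93.1 to 123.6 and 87.2 to 98.4, overlapped with the untreated ones, at 82.5 to 113 and 65.0 to 103.

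Members were scattered. Within 50 kb of another member lay 55, and 20 within 10 kb. Erc2, a presynaptic scaffold gene, and Rora, a nuclear receptor gene, held 3 members each, and 23 genes held 2. The 3 in Erc2 were all of the class in which both changes held, with means of 66.3, 33.4 and 37.2 at 24 h against 212, 64.0 and 74.5 with TNF. The 3 in Rora fell into 3 classes, and at 72 h without TNF they stood at 32.3, 44.2 and 123. Members of 1 gene thus did not always follow the same course. A tested peak that was no member lay within 10 kb of 462 members. Over the nearest such neighbours the median log2 difference with TNF was 0.07 at 24 h (-0.03 over all tested peaks) and 0.04 at 72 h (0.03 over all), and 58 of them (12.6%) were called higher at 24 h. The neighbours were thus near the median of all tested peaks at both times, and 7.06% of tested peaks were called higher at 24 h. Of the members, 133 (19.7%) lay within 50 kb of a peak opened at both times. The share was 15.2% of the 86267 tested peaks that were not opened at both times, members included.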

How the data were processed

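The submitters' processing notes name FastQC, Trim Galore, Bowtie2, SAMtools, MACS2 and mm10, without versions. Peak windows were 500 bp in 89898 of 90154 cases, and replicates were not pooled in the table. How duplicates and the transposase offset of reads were handled is not given in the sources used here. A read off by a few bases matters little in such windows, whereas retained duplicates would make replicates look more precise than they are. The deposited values are a signal per peak and library that the authors made by dividing reads in peaks by a factor per library, a step not given in the sources used here. Dividing by the lowest value of a library made 100% of its values whole within 0.001 reads, which gave the reads (9640256 to 39349111 per library). Of values of 2 to 20 reads, 61.8% were odd. Sample columns left unused numbered 0.

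The members, the lists of genes and the choice of named peaks were made with earlier results of these data known. The test was limma-trend (limma 3.58.1, R 4.3.3) on log2(value + 1), a group mean for each of 6 groups over 19 libraries, with Benjamini-Hochberg adjustment over the 88919 peaks kept by filterByExpr (minimum count 10) and two-sided p-values. Fold changes on this scale understate those of low peaks. Contrasts that share libraries with the rule serve as description. Alternatives were edgeR 4.0.16 and DESeq2 1.42.0 on the recovered reads, scaling to equal total reads, a pseudocount of 5, no filter, the compared groups alone, replicate blocks, leaving out each library, other limits of the rule, a gene-end window of 2 kb and other class factors. The fit was also tested on simulated data. Named peaks were the 10 members with the smallest p for the difference of the TNF effects among those whose libraries did not overlap at 24 h, the 5 with the smallest p in each direction for 1 week against NSP, the 5 members at TNF-related list genes, the 5 at gene ends with the highest mean at 24 h with TNF, and the peaks on either side of each limit. The Sox9, Nfe2l2, Tex2, Erc2, Rora and second Matn2 members and the other promoter members were added after their values had been seen. One named peak is not reported here.

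Positions are those of the deposited table. Genes and promoter windows came from RefSeq GRCm38.p6, the assembly that mm10 denotes. A whole genome was not used here, so sequence outside promoter windows, exons and introns were not examined.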

Additional observations from a re-analysis of the deposited data

Results flagged for a closer look

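In 6 of the 29 named members, all TNF libraries lay above the untreated ones at 24 h and below them at 72 h. Of all 675 members, 25 had this order, and the share over all tested peaks is not given. The rule itself used both contrasts. All of the 6 but the Creb5 member were named for a small p of the difference between these contrasts. The values below therefore describe the choice. The log2 difference of the TNF effects, 72 h minus 24 h, was -1.54 at the member near Bmp7, which was called (adjusted p = 0.00218 by limma-trend, and between 2.21e-07 and 0.0268 over its alternatives). It was -1.67 near Dlx4, -1.63 inside Matn2, -1.65 near Ankrd50, -1.76 inside Kbtbd12 and -1.25 inside Creb5, and none of these was called (adjusted p from 0.145 to 0.259 by limma-trend). With DESeq2 and in a fit to the compared groups alone, those at Dlx4, Matn2, Ankrd50 and Kbtbd12 were called. At the Bmp7 member NSP libraries had 206, 187 and 208 normalised reads and 1 week libraries 193, 176, 200 and 149, so the treated libraries at 24 h were above and those at 72 h below the levels of NSP and 1 week.

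At the Erg member, the lowest of the 4 libraries at 1 week (replicate 1) stood at 99.6 normalised reads, while the others stood at 138, 143 and 143. The gap passed Dixon's 95% limit for 4 samples. Groups of 4 libraries were examined this way for 29 members, and chance flags about 1 group in 20.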

How the results depend on the processing

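The number of members depended on the rule. It was 1461 with a 24 h ratio of at least 1.5, 243 with at least 2, 219 with a 72 h ratio of at most 1, 243 with a level of at least 100, and between 879 and 1147 with 1 replicate number left out. Medians of libraries in place of means chose 884 peaks (438 shared with the 675), and scaling to equal total reads 1003 (674 shared). Over all tested peaks at 72 h, that scaling moved the calls from 5551 higher and 4932 lower to 4221 and 6601. Members called higher at 24 h were 436, and 220 to 353 with a library left out. All tested peaks so called were 6274, and 3860 to 5629 with a library left out. Members called lower at 72 h were 3, with 6 in a fit to the compared groups alone and 0 to 3 with a library left out. All tested peaks so called were 4932, 7686 and 2829 to 3618 in the same order. For the difference of the TNF effects 1 member was called, with 2 after scaling to equal total reads, 2 with a pseudocount of 5, 23 with DESeq2 and 51 in a fit to the compared groups alone, and 1 to 1 with a library left out. The cause of these differences was not tested. For 1 week against NSP, 205 to 217 members were called higher and 174 to 240 lower with a library left out, and none of the other alternatives moved either count by over 1.5 times. With a library left out, the ranges over all tested peaks were 27625 to 30809 higher and 27787 to 29909 lower. A gene-end window of 2 kb held 5.78% of members. With a class factor of 1.2 or 1.5 in place of 1.3, both changes held in 216 or 27 members and neither in 0 or 134. Counting peaks inside list genes only left 4 of 7 list members. Among named members the 10 called for 1 week against NSP stayed called in all 150 refits. For the 10 named by the difference of the TNF effects, 179 refits kept the side of the threshold and 21 gained a call, and for the 10 named by list or gene end 121 refits of TNF at 24 h kept it, 15 lost and 4 gained a call, and no direction was reversed in any alternative. All these members were chosen by values of the same libraries, which favoured this outcome, and nothing is read from these counts.

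Replicate numbers are shared between groups, but same-numbered libraries did not deviate together (correlations of -0.0261 to 0.107), so the numbers were not taken as pairs. With a replicate block 435 members were called higher at 24 h, 2 lower at 72 h and 1 for the difference of the effects, and with a block by the numbers in the library names 442, 2 and 2. The median member had 34 reads in an untreated library at 24 h, where the rule selected low values, and 42 to 84 in the other groups, which limits what single members show. Intervals from reads would cover counting error only.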

Other observations

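Members lay on 20 chromosomes. Their share of the tested peaks ran from 0.240% on chromosome X (5 of 2085) to 0.993% on chromosome 15 (41 of 4127). The mirror image of the rule, with the limits turned over for peaks closed by TNF at 24 h, chose 349 peaks, fewer than the 675 members. Calls over all tested peaks at 24 h were also more often higher with TNF (6274) than lower (3136), so nothing particular to the members is read from this. In addition, 1950 peaks met the level limits and the 24 h ratio of 1.7 with a 72 h ratio between 1.2 and 1.7. The 212 peaks that were nearly without reads in every library whose name carries the tag and well covered in the others included 0 members.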
